A study of Mus musculus with 16 samples.

Results

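The genes examined were 7 Fc receptor and Fc receptor-like genes of B cells, Fcrl1, Fcrl5, Fcrla, Fcrlb, Fcgr2b, Fcmr and Fcer2a, out of 50686 genes in the count files. The list holds part of a gene family with no selection by level, and other Fc receptor genes are described further below. It was chosen, however, from earlier measured values of these same libraries, in which Fcrl1 was lower and Fcrla higher with senexin B. The changes of the members with senexin B within a genotype are therefore given as a description with no p-value. Tests are given for the genotype differences and for the interaction. The interaction is built from those same changes with senexin B. RNA was sequenced from 16 libraries in 4 groups of 4. The groups were control lines with DMSO, control lines with senexin B, Cdk8-ko lines with DMSO and Cdk8-ko lines with senexin B. Control lines are labelled wildtype and are Cdk8 fl/fl in the study's methods; Cdk8-ko lines are labelled Cdk8 KO and carry Cdk8 alleles deleted by Vav-Cre, which acts in blood-forming cells. All 8 lines were derived individually from C57BL/6N bone marrow by a retrovirus carrying BCR-ABL1p185 and GFP, so every group shares the oncogene, and each line gave a DMSO library and a library with senexin B, an inhibitor of the kinases CDK8 and CDK19, at 1 µM for 48 h.

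Fc receptors bind the constant part of antibodies and couple antibody-coated particles to the cell that carries them. In B cells the IgG receptor FcγRIIB restrains signalling from the B-cell receptor by recruiting the inositol phosphatase SHIP, encoded by Inpp5d. The Fc receptor-like proteins are relatives with tyrosine motifs of the activating or the inhibitory kind, or with no membrane anchor at all. Most of them appear on B cells as these mature, whereas the paper describes the transformed cells that grew out as pro-B cells.

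The labelled cell type was compared with marker genes. All 8 B-lineage markers and all 8 pro-B and pre-B markers averaged at least 1 CPM (counts per 1000000, scaled by the TMM method). Of the latter, Igll1, Bst1, Vpreb1 and Il7r held at least 79.2 CPM in every library. Kit ran from 0 to 129 CPM, Dntt from 0.864 to 283, Rag1 from 1.22 to 124 and Rag2 from 0.141 to 45.1. Of the mature B-cell markers, 4 of 8 averaged at least 1 CPM, led by Cd22 at 126 CPM and Cd74 at 47.3 CPM, while Ms4a1 did not exceed 2.12 CPM and H2-Aa did not exceed 3.09 CPM. All 4 plasma cell markers also averaged at least 1 CPM. So did 1 of 5 T cell markers, Lck at 64.2 CPM, and 1 of 3 natural killer cell markers, Klrb1c at 9.37 CPM. Of 4 erythroid markers, 1 did, Hbb-bt at 75 CPM and up to 265 CPM in a library. Among 10 myeloid markers Lyz2 alone reached 1 CPM, and its highest library held 24.7 CPM; Elane, S100a8 and S100a9 were at 0 in all libraries. Totals ran from 13145876 to 18349425 counts per library. Cdk8 averaged 65.3 ± 1.93 CPM (SD, n = 4) in control DMSO libraries and 43.9 ± 6.59 CPM in Cdk8-ko DMSO libraries; a count over the whole gene includes exons outside the deleted part.

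Fcrl1 (ENSMUSG00000059994, GRCm38 chr3:87376387-87402934, plus strand) encodes a surface co-receptor of B cells with motifs of the activating kind. Fcrl5 (chr3:87435773-87500678, plus strand), which carries motifs of both kinds, starts 32.8 kb beyond its end. Fcrlb (chr1:170907273-170912941), Fcrla (ENSMUSG00000038421, chr1:170917576-170927583) and Fcgr2b (ENSMUSG00000026656, chr1:170958617-170976547) lie side by side on the minus strand of chromosome 1, with 4.63 kb between Fcrlb and Fcrla and 31 kb between Fcrla and Fcgr2b. Fcrla and Fcrlb encode proteins that stay inside the cell. Fcmr (chr1:130865669-130880791), the IgM receptor, and Fcer2a (chr8:3681737-3694175), the low-affinity IgE receptor CD23, lie apart from these clusters.

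The 250 bases before the RefSeq start of the 3 genes with appreciable RNA are shown because they had different values with senexin B while 2 of them are close neighbours on a chromosome. All 7 members matched a RefSeq promoter of GRCm38.p6. Each sequence reads 5′ to 3′ on the strand of its gene, and capitals mark the ETS core GGAA or its complement TTCC. The windows are chr3:87376137-87376386 for Fcrl1, chr1:170927584-170927833 for Fcrla and chr1:170976072-170976321 for Fcgr2b. The RefSeq start of Fcgr2b differs from that of the counted gene, so its window lies inside the gene body of the count files, downstream of their start.
Fcrl1: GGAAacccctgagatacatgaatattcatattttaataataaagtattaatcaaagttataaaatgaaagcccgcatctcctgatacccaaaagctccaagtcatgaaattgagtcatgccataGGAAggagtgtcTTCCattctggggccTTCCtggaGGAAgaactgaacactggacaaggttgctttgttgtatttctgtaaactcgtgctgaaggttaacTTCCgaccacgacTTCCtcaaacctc
Fcrla: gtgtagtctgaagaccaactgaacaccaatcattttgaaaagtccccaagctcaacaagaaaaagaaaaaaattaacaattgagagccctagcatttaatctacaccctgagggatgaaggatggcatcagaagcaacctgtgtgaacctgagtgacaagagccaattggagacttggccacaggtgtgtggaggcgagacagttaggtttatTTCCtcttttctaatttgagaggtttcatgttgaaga
Fcgr2b: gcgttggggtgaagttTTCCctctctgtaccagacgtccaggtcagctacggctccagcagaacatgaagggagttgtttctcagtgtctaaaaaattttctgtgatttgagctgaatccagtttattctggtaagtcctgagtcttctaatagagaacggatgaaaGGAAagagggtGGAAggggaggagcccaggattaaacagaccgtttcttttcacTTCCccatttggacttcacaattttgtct

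On both strands, the letters GGAA occurred 7 times before Fcrl1, 4 times before Fcgr2b and 1 time before Fcrla, and 93.4% of all 32851 promoter windows of this length held them. The E-box letters CANNTG occurred 4 times before Fcrla, 1 time before Fcgr2b and not before Fcrl1, against a share of 66.2% of all windows. Fcrl1 alone held TATAAA, found in 12.4% of windows. These matches are letters in a window and say nothing on binding.

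RNA of 3 members was readily counted in all 16 libraries, and RNA of the other 4 was close to the limit of detection. Fcgr2b was counted 147 to 3165 times per library, Fcrla 16 to 2853 times and Fcrl1 28 to 455 times. Fcmr was counted 0 to 9 times, Fcrl5 0 to 4 times, Fcer2a 0 to 4 times and Fcrlb 0 to 2 times. A floor of 3 counts, which a count of 0 allows, corresponds to 0.163 to 0.244 CPM in these libraries and covers counting error only. Fcmr exceeded 3 counts in 6 of 16 libraries, Fcrl5 in 2, Fcer2a in 1 and Fcrlb in 0.

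**Figure D1:**
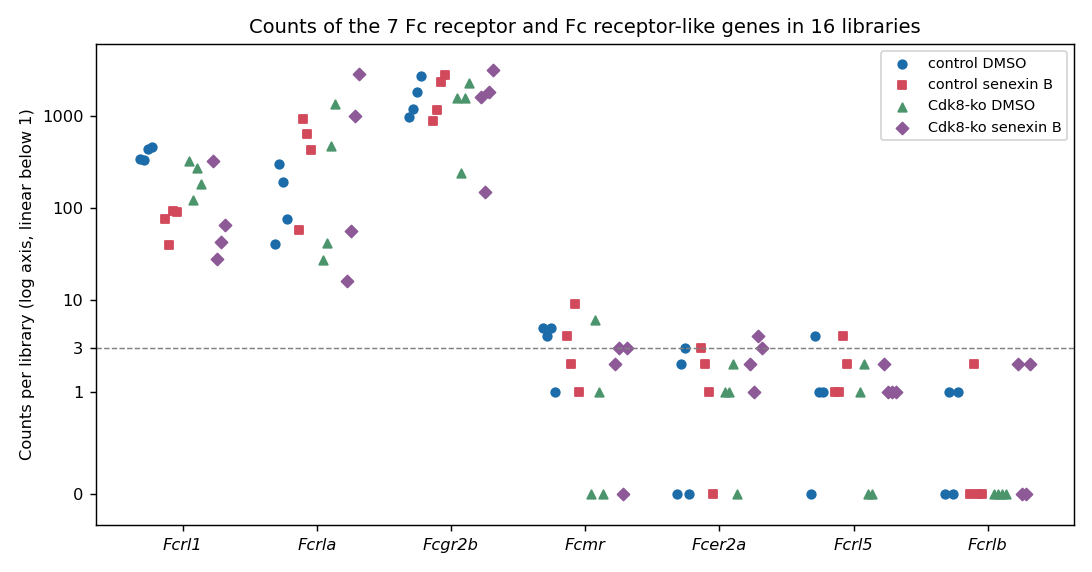
Counts of each of the 7 genes in each of the 16 libraries, on a log axis that is linear below 1, with the 4 groups by colour and marker and the floor of 3 counts as a dashed line. Fcrl1, Fcrla and Fcgr2b lie above the floor in all libraries, whereas Fcmr, Fcer2a, Fcrl5 and Fcrlb lie at 9 counts or fewer.

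The 4 low members gave no usable difference between groups. Fcmr held 5, 4, 5 and 1 counts in control DMSO libraries of lines 1 to 4 and 4, 2, 9 and 1 in the same lines with senexin B. In Cdk8-ko lines 1 to 4 it held 0, 6, 1 and 0 counts with DMSO and 2, 3, 0 and 3 with senexin B. The groups overlapped. Summed over the 16 libraries there were 46 counts of Fcmr, 25 of Fcer2a, 22 of Fcrl5 and 8 of Fcrlb. None of the 4 passed the filter on low counts, so no fold is given for them, and a difference between groups was not detectable at this depth.

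Per kilobase of exon, which allows levels of different genes to be set side by side, Fcgr2b led in control DMSO libraries with 18.1 ± 10.1 CPM per kb (SD, n = 4). Fcrl1 followed with 6.76 ± 1.62 CPM per kb and Fcrla with 5.35 ± 4.27 CPM per kb, and these neighbours in the order did not differ beyond their spread. With senexin B in control lines, Fcgr2b averaged 21.3 ± 10.9, Fcrla 20.8 ± 16.6 and Fcrl1 1.43 ± 0.421 CPM per kb. In Cdk8-ko DMSO libraries, Fcrla averaged 18.8 ± 25.8, Fcgr2b 16.3 ± 10.7 and Fcrl1 4.09 ± 1.56 CPM per kb. In Cdk8-ko libraries with senexin B the means were 37.5 ± 52.7 for Fcrla, 18.7 ± 14.8 for Fcgr2b and 1.96 ± 2.26 for Fcrl1. The order of Fcrla and Fcgr2b lay within their spread in each of these 3 groups.

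Fcrl1, the co-receptor of the activating kind, was lower with senexin B in every control line. With DMSO, control lines 1 to 4 held 19, 21.1, 24.1 and 32.1 CPM. With senexin B the same lines held 5.4, 3.18, 4.99 and 6.81 CPM. The highest treated library lay below the lowest untreated one, so the groups did not overlap; 1.25% of the 12989 genes tested were likewise lower without overlap. Within lines, the DMSO level was 3.52 times the senexin B level in line 1, 6.63 times in line 2, 4.82 times in line 3 and 4.72 times in line 4. The 95% counting interval nearest to equality was that of line 1, from 2.73 to 4.58 times. In bulk RNA, fewer cells with the transcript and less transcript per cell cannot be told apart.

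In the Cdk8-ko lines Fcrl1 was lower with senexin B in 3 of 4 lines beyond counting error. With DMSO, lines 1 to 4 held 20.1, 7.36, 17.4 and 13.3 CPM. With senexin B they held 18.9, 1.88, 2.56 and 4.49 CPM. Line 1 stood apart, with 322 counts before and 325 after treatment and a senexin B to DMSO ratio of 0.939 (95% counting interval 0.802 to 1.1). The DMSO level was 3.92 times the senexin B level in line 2, 6.8 times in line 3 and 2.97 times in line 4. Because of line 1 the groups overlapped.

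Fcrla, which encodes an intracellular protein that binds immunoglobulin in B cells, moved the other way. In control lines 1 to 4 it stood at 2.26, 19.3, 10.4 and 5.37 CPM with DMSO. With senexin B it stood at 4.18, 74.4, 34 and 32.8 CPM. It was higher in 4 of 4 lines, as were 8.11% of genes tested, although the groups overlapped because line 1 was low throughout. The ratio of senexin B to DMSO was 1.85 in line 1 (95% counting interval 1.21 to 2.84), 3.85 in line 2, 3.28 in line 3 and 6.1 in line 4.

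Fcrla varied most among Cdk8-ko lines. With DMSO, lines 1 to 4 held 1.69, 2.49, 30 and 97.4 CPM, and with senexin B 0.931, 3.76, 60 and 197 CPM. Lines 3 and 4 were higher with senexin B by ratios of 2 (95% counting interval 1.79 to 2.24) and 2.03 (1.9 to 2.16). In line 2, with 41 and 56 counts, the ratio was 1.51 with an interval from 0.99 to 2.31. In line 1, with 27 and 16 counts, it was 0.551 with an interval from 0.277 to 1.06, so neither line changed beyond counting error. Across all 16 libraries the highest level of Fcrla was 212 times the lowest, against 22.2 times for Fcgr2b and 17.1 times for Fcrl1.

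**Figure D2:**
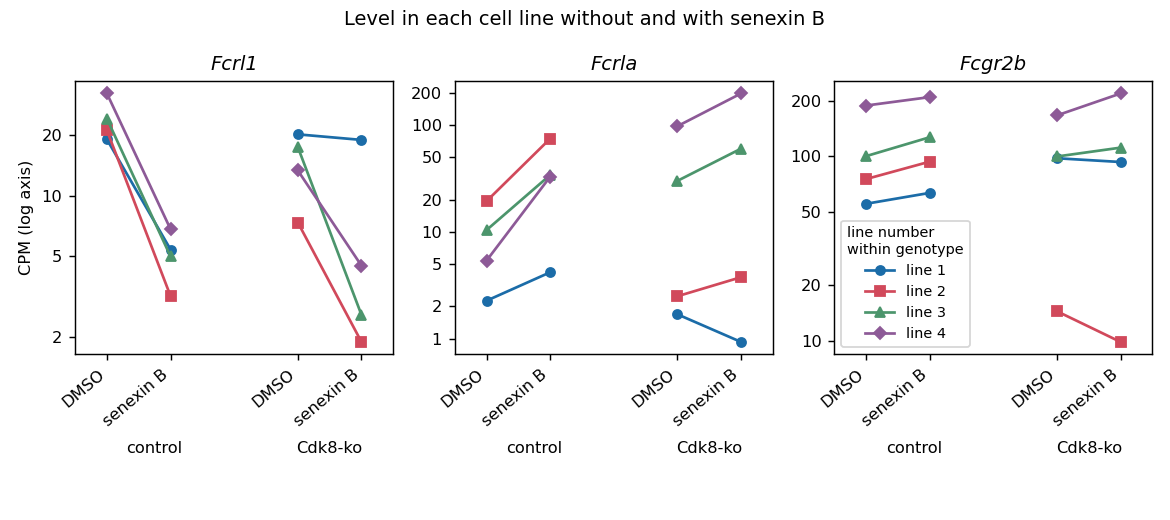
CPM of Fcrl1, Fcrla and Fcgr2b in each of the 8 cell lines, on log axes, with a line joining the DMSO and the senexin B library of a cell line; colours mark the line number within each genotype, and equal numbers in the 2 genotypes are different lines. Fcrl1 drops in 7 lines and stays near 19 CPM in Cdk8-ko line 1, Fcrla is higher with senexin B in 7 lines, from DMSO levels of 2.26 to 97.4 CPM, and Fcgr2b keeps the order of its lines within each genotype.

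Fcgr2b, the inhibitory IgG receptor, differed more between lines than between treatments. Control lines 1 to 4 held 55.3, 75.2, 100.1 and 188 CPM with DMSO and 63.3, 93.5, 127 and 209 CPM with senexin B. All 4 were slightly higher with senexin B, by ratios from 1.11 to 1.27. Cdk8-ko lines 1 to 4 held 97.5, 14.5, 99.7 and 166 CPM with DMSO and 93.1, 9.87, 111 and 219 CPM with senexin B. Line 2 was the low one under both conditions, and its ratio of 0.682 (95% counting interval 0.551 to 0.841) was the lowest of the 8. The short gene Gm38204 overlaps Fcgr2b and held at most 3 counts, and Gm2962 overlaps Fcrla and held at most 7, in files whose counting used no strand. Fcgr2b also shares closely similar exons with Fcgr3, and featureCounts leaves out reads placed at more than 1 site unless set otherwise, so the levels of both genes are uncertain to that extent.

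**Figure D3:**
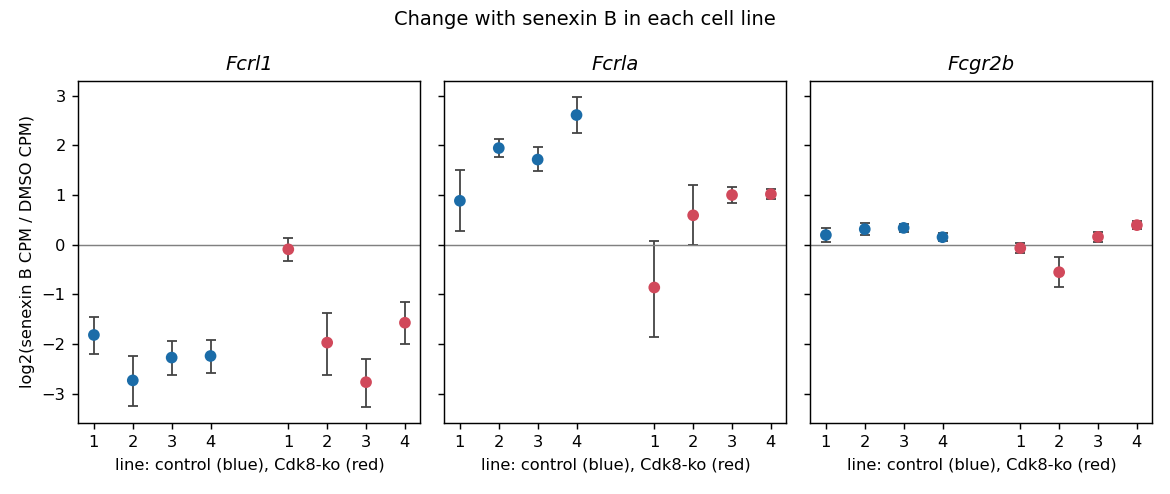
Change with senexin B in each line as the log2 ratio of senexin B CPM to DMSO CPM, with 95% counting intervals as bars, for control lines 1 to 4 (blue) and Cdk8-ko lines 1 to 4 (red). All control lines lie below 0 for Fcrl1 and above 0 for Fcrla; in Cdk8-ko line 1 the intervals of both genes include 0.

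The spread of each gene over the 16 libraries was divided on the scale of log2(CPM + 1) into a part between lines, a part between DMSO and senexin B, and the rest. For Fcgr2b, 98.4% lay between lines and 0.264% between treatments. For Fcrla, 88.7% lay between lines and 6.93% between treatments. For Fcrl1, 29.3% lay between lines and 60.3% between treatments. The medians over the 12557 genes with a mean of at least 1 CPM were 73.2% between lines and 2.78% between treatments. The shares of Fcrl1 and Fcrla between treatments describe the values that chose them.

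The fit with edgeR's quasi-likelihood method gave Fcrl1 a log2 fold change of -2.22 (standard error 0.29) with senexin B in control lines and -1.08 (0.73) in Cdk8-ko lines. For Fcrla it gave 1.99 (0.85) and 0.99 (1.65), and for Fcgr2b 0.26 (0.45) and 0.19 (0.88). A gene was called where its adjusted p was below 0.05 and its change exceeded 2-fold. Without regard to the line, 0 of the 3 members and 0 of 12989 genes (0%) were called in control lines, and 0 of 13285 genes (0%) in Cdk8-ko lines. With the cell line as a replicate block, log2 fold changes in control lines were -2.23 (standard error 0.20) for Fcrl1, 1.86 (0.26) for Fcrla and 0.27 (0.14) for Fcgr2b. The limits were then passed by Fcrl1 and Fcrla, among 45 genes or 0.346% of those tested. Since the members were picked for these values, the count is no evidence on them. It also rested on the lines: with control line 2 left out neither gene and 0 genes in all were called, and with line 3 left out Fcrl1 alone was called, while the log2 fold changes over the 4 omissions stayed between -2.37 and -2.10 for Fcrl1 and between 1.58 and 2.09 for Fcrla. In Cdk8-ko lines the replicate block gave -1.52 (0.40) for Fcrl1, 0.71 (0.25) for Fcrla and 0.01 (0.15) for Fcgr2b, with 0 members called and 7 genes or 0.0527% called in all.

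The response of Cdk8-ko line 1 to senexin B was examined over the other 43 genes called in the control lines with the block. In Cdk8-ko line 1, 35 of 43 moved in the direction seen in control lines, with a median of 0.52 on the log2(CPM + 1) scale. In Cdk8-ko lines 2, 3 and 4 these were 37, 43 and 36 of 43, with medians of 0.78, 1.07 and 0.68. Line 1 thus gave the lowest median of the 4 lines. A change of more than 0.5 on that scale in this direction was seen in 22 of 43 genes in Cdk8-ko line 1, in 31, 33 and 27 genes in lines 2, 3 and 4, and in 39 to 43 genes in the control lines. The 43 genes were chosen by their change in the control lines, so the control counts are high by that choice. They are no measure of a difference between the genotypes. With Cdk8-ko line 1 left out, a line singled out because Fcrl1 was not lower in it, the log2 fold change with the block was -2.10 for Fcrl1 and 0.93 for Fcrla.

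Genotype gave no call among the members. In DMSO, Fcrl1 averaged 14.6 ± 5.56 CPM (SD, n = 4) in Cdk8-ko lines and 24.1 ± 5.76 CPM in control lines, with Cdk8-ko lines 2, 3 and 4 below all control lines and line 1 among them. The log2 fold change was -0.71 (standard error 0.31, adjusted p = 0.897 in edgeR). Its unadjusted p of 0.0476 falls in the 5.32% of genes with an unadjusted p under 0.05. Fcrla averaged 32.9 ± 45 CPM against 9.33 ± 7.46 CPM, a log2 fold change of 1.85 (1.23, adjusted p = 0.908), which came to 0.31 without Cdk8-ko line 4. Fcgr2b averaged 94.5 ± 62.2 CPM against 105 ± 58.6 CPM, a log2 fold change of -0.13 (0.64, adjusted p = 0.987). For both, the 4 lines of each genotype overlapped. Of 13174 genes tested, 1 was called by edgeR (0.00759%), and DESeq2 called 32 genes, 0 of them members.

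With senexin B in both genotypes, Fcrl1 averaged 6.96 ± 8.04 CPM in Cdk8-ko and 5.1 ± 1.5 CPM in control lines, with a log2 fold change of 0.45 (0.70, adjusted p = 1 in edgeR). Without the library of Cdk8-ko line 1 this value was -0.76, so 1 library decided its sign. Fcrla averaged 65.5 ± 91.9 against 36.3 ± 28.9 CPM, with a log2 fold change of 0.85 (1.37, adjusted p = 1). It became -0.76 without Cdk8-ko line 4. Fcgr2b averaged 108 ± 85.9 against 123 ± 62.8 CPM, with a log2 fold change of -0.18 (0.74, adjusted p = 1). Of 13010 genes, 0% were called, and 0 members had an unadjusted p under 0.05 or were called by DESeq2.

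Whether the genotypes differed in their response was tested as an interaction over all 16 libraries. A positive value means that the response of the Cdk8-ko lines was the less negative or the more positive one. The interaction was 1.15 (standard error 0.81, adjusted p = 1 in edgeR) for Fcrl1, -0.99 (1.96, adjusted p = 1) for Fcrla and -0.06 (1.06, adjusted p = 1) for Fcgr2b. With the line as a replicate block it was 0.71 (0.49), -1.20 (0.41) and -0.26 (0.20), each at an adjusted p of 0.991. In that fit 3.24% of 14164 genes had an unadjusted p under 0.05, Fcrla among them. The interaction is built from the changes with senexin B that chose Fcrl1 and Fcrla, so its p-values are no independent evidence on these genes. Both fits called 0% of genes, and DESeq2 called 0 members.

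**Figure D4:**
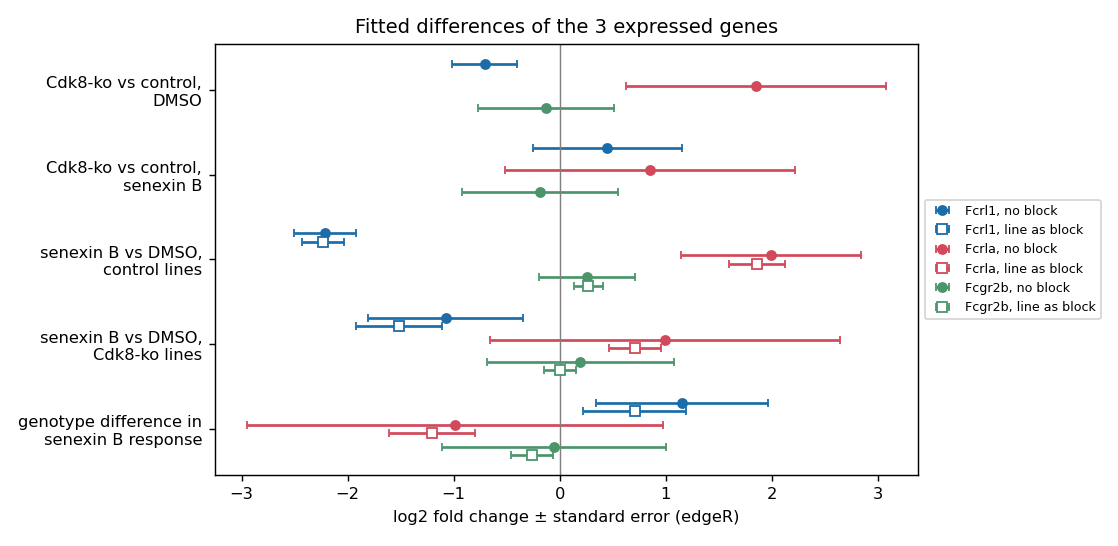
Fitted log2 fold changes of Fcrl1, Fcrla and Fcgr2b in the 5 comparisons, with standard errors as bars; filled circles are fits without a block and open squares fits with the cell line as a block, which apply to the comparisons within lines. Bars narrow with the block in the senexin B comparisons, most of all for Fcrla and Fcgr2b, and the genotype differences of Fcrla and Fcgr2b in DMSO are 1.85 ± 1.23 and -0.13 ± 0.64.

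Genes around the members are given from the files' coordinates, within 200 kb. Near Fcrl1 and Fcrl5, Etv3 averaged 69.4 CPM and changed by -0.11 (0.16, adjusted p = 0.878) with senexin B in control lines in edgeR with the block, while Arhgef11 at 17.7 CPM changed by -0.93 (0.18, adjusted p = 0.0957). Around Fcrla and Fcgr2b, Atf6, Dusp12, Cfap126 and Sdhc had log2 fold changes between -0.36 and 0.34 in that fit, and none was called. Fcgr3, an activating IgG receptor 74.6 kb beyond Fcgr2b, had -1.09 (0.34, adjusted p = 0.313), and Pcp4l1 had -0.81 (0.36, adjusted p = 0.482). Fcrla, with the higher value, thus lay between genes that were not called in either direction. The neighbours of at least 1 CPM were Pfkfb2, Yod1, AA986860, Pigr and Mapkapk2 for Fcmr, and Zfp358, Mcoln1, Pnpla6, Xab2, Pet100, Stxbp2 and Trappc5 for Fcer2a, and 0 of these were called with senexin B in either genotype.

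The other Fc receptor genes were mostly silent or differed from line to line. Of 13 listed, Trim21, an intracellular antibody receptor, was the steadiest at 16.7 to 25.8 CPM over the 16 libraries. Cr2, a complement receptor, ran from 2.53 to 40.9 CPM. Fcgr3 stood at 2.26, 4.22, 0.0549 and 135 CPM in control DMSO lines 1 to 4, and at 1.25, 1.03, 14.4 and 77.5 CPM in Cdk8-ko DMSO lines 1 to 4. It was therefore high in line 4 of each genotype, which are different lines. Summed myeloid markers were 0.512 to 8.12 CPM in control DMSO libraries and 0.701 to 25.2 CPM in Cdk8-ko DMSO libraries. Of the 10 in that list, Lyz2 reached 24.7 CPM in its highest library and was alone in averaging at least 1 CPM. Whether Fcgr3 goes with these markers was not tested. Fcrl6 ran from 0 to 35.7 CPM. Fcer1a and Ms4a2, subunits of the high-affinity IgE receptor, were at 0 in all 16 libraries. Fcgr4, Fcgrt, Fcrls and Fcamr had at most 4 counts.

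**Figure D5:**
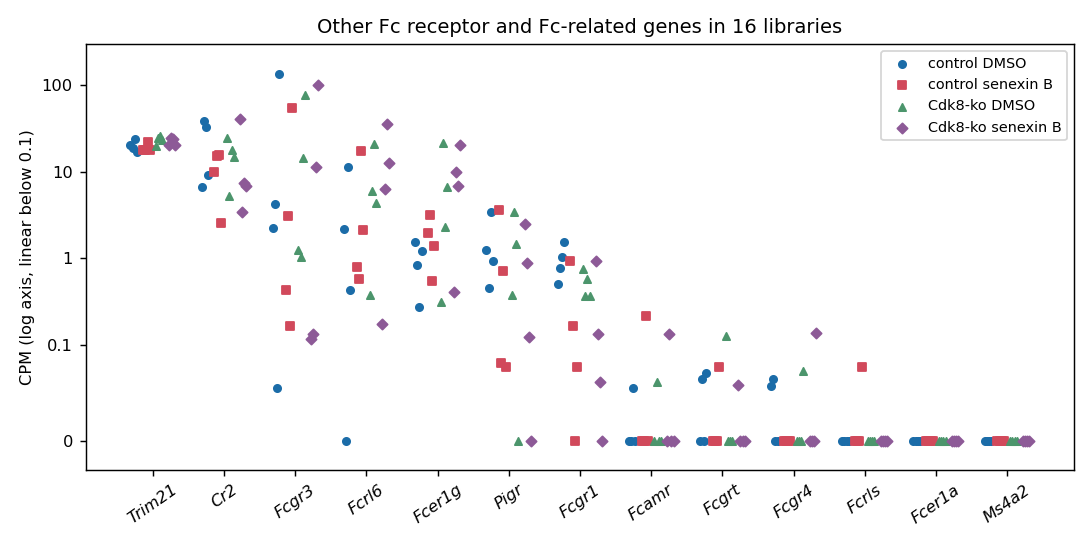
CPM of 13 other Fc receptor and Fc-related genes in each of the 16 libraries, on a log axis that is linear below 0.1, with groups by colour and marker. Trim21 forms a tight band from 16.7 to 25.8 CPM, Fcgr3 spans 0.0549 to 135 CPM, and Fcer1a and Ms4a2 lie at 0.

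Of the 13 genes, 0 were called by edgeR in any comparison with or without the block. With senexin B in control lines, 5 of the 7 tested were lower and 2 higher, with a median log2 fold change of -0.40 beside 0.02 over all genes. Those with the smallest p without the block were Fcgr1, the high-affinity IgG receptor, at -1.69 (0.92, adjusted p = 1) and Cr2 at -0.99 (0.69, adjusted p = 1). In edgeR with the block, 3 of the 7 had an unadjusted p under 0.05, beside 1343 of 12989 genes. Fcgr1 had 9, 12, 19 and 22 counts in control DMSO lines 1 to 4 and 13, 2, 0 and 1 with senexin B. In Cdk8-ko lines it had 12, 6, 9 and 5 counts with DMSO and 16, 2, 1 and 0 with senexin B. It was thus lower in lines 2 to 4 of each genotype and not in line 1 of either, with at most 22 counts in a library. In Cdk8-ko lines, 6 were tested. Without the block, Fcrl6 at 0.78 (1.34) and Trim21 at -0.07 (0.15) had the smallest p, each with an adjusted p of 1.

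Fcer1g, the shared signalling chain of several activating Fc receptors, had the smallest unadjusted p by genotype among the 13 other Fc receptor genes in edgeR. It averaged 7.75 ± 9.71 CPM in Cdk8-ko DMSO libraries and 0.959 ± 0.537 CPM in control DMSO libraries, a log2 fold change of 3.05 (1.13, adjusted p = 0.897 in edgeR). Cdk8-ko line 2 at 21.8 CPM set most of that mean, and Cdk8-ko line 1 at 0.313 CPM lay among the controls. With senexin B the difference was 2.41 (0.97, adjusted p = 1). Fcgr1 in DMSO, at -0.87 (0.42, adjusted p = 0.897), and Trim21 with senexin B, at 0.26 (0.17, adjusted p = 1), came next. In the interaction, Cr2 at 0.89 (1.12) and Fcgr1 at 0.86 (1.44) had the smallest p, each with an adjusted p of 1.

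Inhibitory receptors of B cells beyond the Fc family gave 0 calls among 12 genes. Cd22, a sialic acid-binding inhibitory receptor, was higher with senexin B in 4 of 4 control lines, as were 8.11% of genes tested. It went from 144, 142, 61 and 23.3 CPM to 220, 161, 79.6 and 54 CPM. In Cdk8-ko lines the level went from 20.4, 150, 212 and 224 CPM to 19.3, 135, 202 and 177 CPM, but in lines 1 and 3 the ratios were 0.947 and 0.953, with 95% counting intervals that reach 1.11 and 1. The interaction of Cd22 was -0.66 (1.09, adjusted p = 1) without and -0.76 (0.21, adjusted p = 0.991) with the replicate block. Btla, a receptor with inhibitory motifs, had log2 ratios of senexin B to DMSO from -3.39 to -0.42 in control lines. They ran from -2.56 to -0.46 in Cdk8-ko lines. Control line 4 held 32 and 4 counts of it, and Cdk8-ko line 2 held 13 and 2. The fit gave Btla -1.48 (1.13, adjusted p = 1) in control and -1.33 (1.23, adjusted p = 1) in Cdk8-ko lines. With the block these values were -1.96 (0.46, adjusted p = 0.18) and -1.41 (0.35, adjusted p = 0.251). Without the block, Ceacam1 in control lines had -0.31 (0.23, adjusted p = 1) and Cd5 in Cdk8-ko lines -0.69 (0.63, adjusted p = 1). By genotype, the smallest p belonged to Cd5 at 0.94 (0.64) and Lair1 at 1.62 (1.14) in DMSO, and to Lair1 at 0.77 (0.83) and Cd72 at -0.31 (0.71) with senexin B, at adjusted p from 0.908 to 1. Cd5 also led the interaction, at -1.05 (1.06, adjusted p = 1).

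Signalling genes that act with these receptors, 24 in number, all passed the filter and gave 0 calls with or without the block. Their fold changes below are from edgeR without the block. In edgeR with the block, 4 of the 24 had an unadjusted p under 0.05 with senexin B in control lines, beside 1343 of 12989 genes. In Cdk8-ko lines 6 of the 24 did, beside 1368 of 13285 genes. Inppl1, the SHIP relative SHIP2, had a log2 fold change of 0.80 (0.28, adjusted p = 1) with senexin B in control lines, and Cd81, a tetraspanin of the B-cell surface, had -0.35 (0.14, adjusted p = 1). Fyn and Lyn are kinases of the Src family that phosphorylate such tyrosine motifs. In Cdk8-ko lines Fyn had 0.53 (0.11, adjusted p = 1) and Lyn -0.39 (0.13, adjusted p = 1). The log2 ratios of senexin B to DMSO of Fyn ran from 0.284 to 0.773 in Cdk8-ko lines and from -0.267 to 0.869 in control lines. Its interaction was 0.47 (0.21, adjusted p = 1), and Dok1 came next with 0.45 (0.36, adjusted p = 1). In DMSO, Fyn was -0.63 (0.17, adjusted p = 0.897) and Cd79b -0.31 (0.18, adjusted p = 0.908) in Cdk8-ko against control lines. With senexin B, Cd79b had -0.41 (0.24, adjusted p = 1). The median over the 24 genes was between -0.13 and 0.06 in the 4 comparisons of 2 groups, beside no more than 0.02 over all genes. Inpp5d, the partner of FcγRIIB, ran from 558 to 1810 CPM.

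Genes whose level followed a member most closely over the 16 libraries were found by Pearson's r of log2(CPM + 1) among 12531 other genes of at least 1 CPM. The 16 points come from 8 lines with a pair of libraries each, and r is given as a description. For Fcrl1 these were Rufy1 (r = 0.917), Prkaa1 (0.905) and Galns (0.901). For Fcrla they were Paxip1 (0.942), Mmd (0.94) and Ranbp3 (0.933). For Fcgr2b they were Kif13a (0.959), Dock5 (0.948) and Brd9 (0.924). Over the 8 line means alone, r of Fcgr2b with Kif13a was 0.979, while over the 8 changes with senexin B it was -0.272. For Fcrl1 and Prkaa1 these values were 0.774 and 0.904, so that pair also moved alike with treatment.

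Among the members themselves, the changes of Fcrl1 and Fcrla over the 8 lines had r = -0.813, against -0.247 for their line means; the choice of the pair used their opposite direction. Fcrla and Fcgr2b, which lie next to each other, had r = 0.56 over line means and 0.514 over changes. Fcgr2b and Fcgr3 had 0.639 and 0.511.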

How the data were processed

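RNA of 16 mouse cell line libraries, 4 in each of 4 groups, was measured. Per the study's methods and the file headers, the authors used Trimmomatic for trimming, STAR for mapping to GRCm38 and featureCounts 1.5.1 with the GENCODE M13 gene models; the deposited values are raw counts, not normalized, without regard to strand. The headers of 15 files name 1 folder and that of control DMSO line 1 another; whether this changed its counts was not tested.

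Totals were 13145876 to 18349425 counts per library. Counts were scaled by TMM to CPM, filtered with filterByExpr and compared in edgeR 4.0.16 (R 4.3.3) with its robust quasi-likelihood F test, p-values being adjusted over all genes tested (Benjamini-Hochberg), on the 8 libraries of the groups compared or on all 16 for the interaction. The block changed calls, so its values stand beside those without it. Same-numbered DMSO and senexin B libraries come from the same cell line, and their deviations correlated at 0.586 to 0.777 in control and 0.774 to 0.87 in Cdk8-ko lines, against -0.552 to 0.208 for different numbers. Numbers pair nothing across genotypes. The alternatives were DESeq2 1.42.0, RLE scaling, other filters, the block and leaving out each library; fits leaving out a line under the block were added after seeing the data. Counting intervals of a ratio are exact binomial at 95%, and a floor of 3 counts was used.

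The members and lists were chosen with earlier results of these data known. Genes of the other lists were named where called, and otherwise as the 2 with the smallest p per comparison, of which 1 is not reported here; Fcgr3, Cd22, Inpp5d and the levels of genes shown with the other Fc receptors are described beyond that, chosen after their values were seen. P-values of the genotype tests without a block measure the spread between lines. With the line as a block, those of senexin B and of the interaction measure the spread of the change within lines. Without the block, these tests treat both libraries of a line as independent, which they are not. Figures were drawn with matplotlib.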

Additional observations from a re-analysis of the deposited data

Results flagged for a closer look

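Fcrl1 in the Cdk8-ko library of line 1 with senexin B, at 18.9 CPM, stood far from the other 3 libraries of its group, which held 1.88, 2.56 and 4.49 CPM. Its gap to the nearest of them was 0.847 of the whole range of the group on the CPM scale. This lies above the 95% critical value of Dixon's test for 4 samples. The ratio depends on that scale, and logarithms of CPM were not used for it. This library was the only case among 18 groups of 4 examined, and chance flags about 1 in 20 groups. The same line also had the lowest median response over the other genes called in control lines, 0.52 on the log2(CPM + 1) scale. Fcrla in that library stood at 0.931 CPM, the lowest of its group. The 18 groups did not cover all genes shown above. Fcgr3 in control DMSO lines 1 to 4, at 2.26, 4.22, 0.0549 and 135 CPM, also had a single library far from the rest.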

How the results depend on the processing

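With senexin B in control lines, the count of members called moved from 0 without a block to 2 with the replicate block, 1 with DESeq2 (20 genes called in all) and 1 with no filter on low counts (3 genes in all). Under the block, leaving out control line 1 gave 2, line 2 gave 0, line 3 gave 1 and line 4 gave 2, chosen after seeing the data. Called over all genes were then 538, 0, 9 and 28, against 45 with all 4 lines. In Cdk8-ko lines the count of members was 0, and 1 with the block and line 1 left out, where all genes called went from 7 to 31. It stayed at 0 under all alternatives run for the genotype comparisons and the interaction.

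The sign of several differences rested on single libraries; 0 of these differences were called. With the block on the replicate number, which pairs nothing across genotypes, the genotype difference with senexin B turned from 0.45 to -0.16 for Fcrl1 and from 0.85 to -0.56 for Fcrla. Leaving out each library in turn, that difference ran from -0.76 to 0.76 for Fcrl1, from -0.76 to 1.48 for Fcrla and from -0.79 to 0.20 for Fcgr2b; Cdk8-ko line 1 set the lowest value for Fcrl1 and Cdk8-ko line 4 that for Fcrla and Fcgr2b. In DMSO, Fcgr2b ran from -0.56 to 0.31, and Fcrla from 0.31, without Cdk8-ko line 4, to 2.46. The interaction ran from -0.055 to 1.46 for Fcrl1, from -2.61 to 0.55 for Fcrla and from -0.67 to 0.37 for Fcgr2b. The cause was not tested. Fcrl1 ran from -2.40 to -2.05 and Fcrla from 1.37 to 2.61 with senexin B in control lines over 19 settings. In Cdk8-ko lines Fcrl1 ran from -2.29 to -0.77, whereas Fcrla ran from -0.62, without the senexin B library of line 4, to 2.54, without the DMSO library of that line. By Spearman's rho, Rufy1 and Galns for Fcrl1 and Paxip1 for Fcrla stayed among the 3 genes most alike, and the 3 genes named for Fcgr2b did not.

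Depth limits the 4 low members, of at most 9 counts per library.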
